A study of Mus musculus with 2 samples.

Results

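A set of 42 genes for folding and exporting proteins through the endoplasmic reticulum (ER) was followed across the cell classes of the small intestine. The genes are a list set by name with no threshold on their values, chosen with earlier results of these data known. All 42 are rows of the deposited tables, out of 31053 features. By role, 4 are sensors and transcription factors of ER stress, 14 are chaperones and co-chaperones, 5 form or exchange disulfide bonds, 12 belong to the translocon and signal peptidase, and 7 serve degradation. The cells came from the proximal small intestine of 2 mice of 1 group (APC), Villin-CreERT2 Apc fl/fl animals in which tamoxifen activates a Cre recombinase in the intestinal epithelium and so removes Apc there. The animals received 2 mg of tamoxifen at 2 times, 24 h apart, and were sampled on day 4. Live cells were sorted by DAPI and sequenced by droplet single-cell RNA-sequencing, which counts transcript molecules as unique molecular identifiers (UMIs). Both mice carry the floxed alleles and had tamoxifen, and no control animal was analysed here, so cell classes are compared with each other and not with another genotype. The Villin promoter is active in the epithelium and not in lymphocytes. Where lymphocytes or plasma cells are compared with epithelial classes, cell class and removal of Apc therefore cannot be told apart.

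Proteins bound for the membrane or for export enter the ER through the Sec61 channel, lose their signal peptide, and fold there with the help of chaperones such as BiP and of disulfide isomerases, while chains that fail to fold are passed back to the cytosol and degraded. When unfolded chains build up, the sensors IRE1, ATF6 and PERK raise the capacity of this machinery, IRE1 by splicing the transcript of Xbp1. Plasma cells, Paneth cells and pancreatic acinar cells are textbook professional secretors: they export immunoglobulin, antimicrobial peptides and digestive enzymes.

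The ER stress element, a CCAAT box followed after 9 bases by CCACG, is the site through which the unfolded protein response is known to act on chaperone genes. It was looked for on both strands of the promoter windows in RefSeq's GRCm38.p6 table, each reaching from 250 bases upstream of a start site to 50 downstream. A window was found for 32 of the 42 members, 36 windows in all, and 8 of these (22.2%) held the element. Of all 32851 windows in the table, 39 (0.119%) held it, and of the 75 windows of other genes of the secretory pathway, 1 did (1.33%). The 8 members were Hspa5, Hsp90b1, Calr, Canx, Creld2, Dnajc3, Pdia6 and Derl3, so that 6 of the 14 windows of chaperone genes held it and none of the 8 windows of translocon genes. A match is a run of letters and not a bound site, and no match says only that these letters are not in the window. Shorter motifs were common. CCACG, part of the element, was in 75% of the members' windows, 64% of those of other pathway genes and 32.8% of all windows. CCAAT, also part of the element, was in 69.4%, 48% and 37.4%. ACGTG, which is not part of the element, was in 36.1%, 58.7% and 19.6%. ACGTG was thus more frequent in the windows of other pathway genes than in those of the members.

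The element is shown in members of different roles, which differ in what follows: the isomerase Pdia6, the degradation factor Derl3, the co-chaperone Creld2 and the lectin chaperone Canx, together with the element alone of Hspa5, the gene of BiP. Each sequence reads 5′ to 3′ along the gene, capitals mark the element (reversed in Derl3 and Creld2), and every element lies upstream of the RefSeq start site, that of Hspa5 inside the GENCODE gene span. They were taken from chr12:17266461-17266539 (Pdia6, + strand), chr10:75893212-75893290 (Derl3, + strand), chr15:88819490-88819568 (Creld2, + strand), chr11:50325770-50325848 (Canx, − strand) and chr2:34772025-34772043 (Hspa5, + strand).
Pdia6: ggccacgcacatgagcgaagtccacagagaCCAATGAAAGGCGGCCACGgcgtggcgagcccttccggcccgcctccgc
Derl3: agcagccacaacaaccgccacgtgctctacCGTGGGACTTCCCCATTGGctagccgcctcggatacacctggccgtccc
Creld2: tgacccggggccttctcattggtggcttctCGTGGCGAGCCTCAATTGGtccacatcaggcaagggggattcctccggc
Canx: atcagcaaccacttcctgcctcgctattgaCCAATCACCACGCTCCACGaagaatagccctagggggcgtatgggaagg
Hspa5: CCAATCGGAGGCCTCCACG

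The libraries held 9645 and 8800 barcodes and 85670711 and 38716743 UMIs, and 7941 and 6957 cells were kept. The 2 libraries shared 24 barcodes, 16 of them among the kept cells. Cells were clustered on genes other than the members and the other pathway genes, and each class is named by markers that hold no member. One plasma marker, Txndc5, is also on the list of other pathway genes. Mouse 1 held 2241 plasma-like, 2752 T-cell-like, 389 B-cell-like, 562 enterocyte-like, 115 crypt-like, 11 Paneth-like and 163 acinar cells. Mouse 2 held 611, 5097, 93, 136, 29, 7 and 0. All 11 plasma markers and all 12 Paneth markers in the tables had UMIs in their own class in mouse 1, and the Paneth-like cells of both mice had Lyz1 and Defa24 in every cell. Clusters were named by these markers, so their presence does not test the names. Acinar cells were defined by their share of pancreatic enzymes, and all 9 acinar markers are such enzymes. Because each class was built from the same cells it is tested in, the tests are not independent of genes that are co-expressed with the markers, and the p-values compare classes of these 2 mice only.

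Secreted products took a large share of the UMIs of plasma-like, Paneth-like and acinar cells, and so the level of any other gene depends on whether they are counted in the total. Immunoglobulin genes and Jchain held 67.4% and 68% of the UMIs of plasma-like cells in mouse 1 and mouse 2. Paneth products such as lysozyme and defensins held 49.9% and 58.1% in Paneth-like cells, and pancreatic enzymes 63.4% in acinar cells. Levels are therefore given as CPM, the count scaled to a fixed total, of the UMIs that are not such cargo, and where the direction differs, as CPM of all UMIs as well.

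The members took 1.75% of all UMIs in plasma-like cells of mouse 1 and 1.67% in mouse 2. T-cell-like cells gave 0.557% and 0.497%, B-cell-like cells 0.486% and 0.403%, crypt-like cells 0.396% and 0.329%, and enterocyte-like cells 0.389% and 0.251%. Plasma-like cells thus stood above all 4 classes in both mice although most of their UMIs came from immunoglobulin genes. Without cargo, the members took 5.38% and 5.2% of the UMIs of plasma-like cells, 1.96% and 2.06% in Paneth-like cells, 1.32% in acinar cells and 0.575% and 0.5% in T-cell-like cells. Dendritic-like cells (0.919% and 1.06%), innate lymphoid-like cells (1.01% and 0.789%) and macrophage- or monocyte-like cells (0.985% and 0.892%) lay between. Per non-cargo UMI, plasma-like cells came first and Paneth-like cells second among the named classes of both mice. Per UMI of all kinds, Paneth-like cells stood at 0.91% and 0.84%, among the dendritic-like (0.894% and 1.05%), innate lymphoid-like (0.934% and 0.786%) and macrophage- or monocyte-like cells (0.911% and 0.878%).

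**Figure D1:**
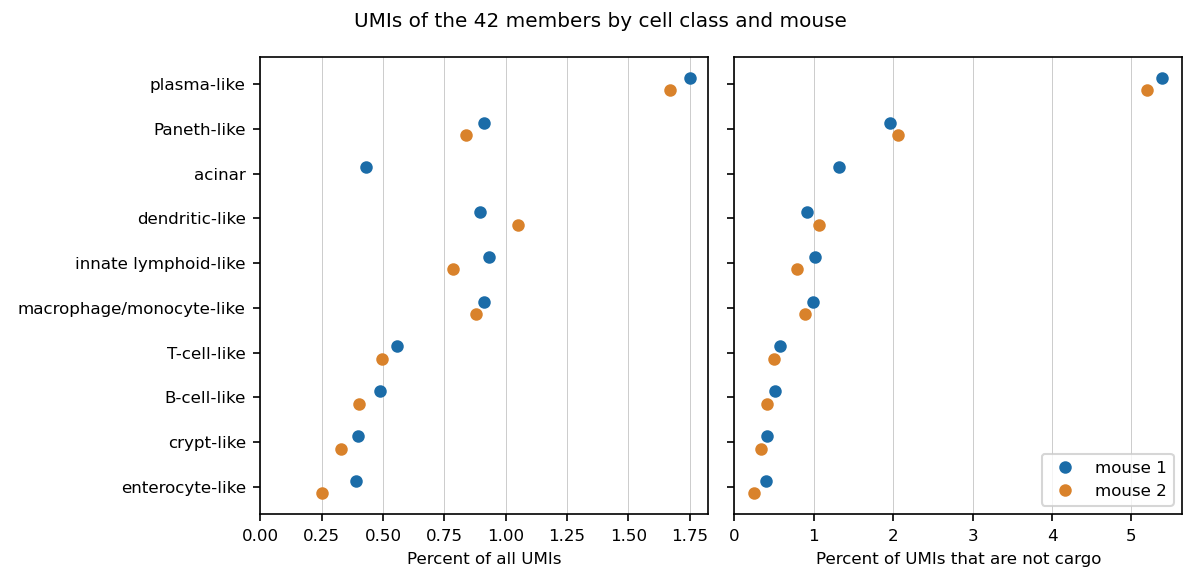
Share of UMIs that belong to the 42 members, in percent (x axes), by cell class (y axis) and mouse (colour), of all UMIs on the left and of UMIs that are not cargo on the right. Each point is 1 class of 1 mouse; acinar cells were found in mouse 1 alone. Plasma-like cells lie at 1.75% and 1.67% on the left and at 5.38% and 5.2% on the right, to the right of every other class in both panels.

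Of the 8 classes that reached 20 cells in both mice, plasma-like cells held the highest level of 39 members in mouse 1 and 38 in mouse 2 per non-cargo UMI. Per UMI of all kinds they held the highest level of 27 and 22, and of 21 in both mice. Ern1, which encodes the sensor IRE1, was highest in innate lymphoid-like cells on both scales, at 120.6 and 140.1 non-cargo CPM against 54.3 and 66.6 in plasma-like cells. Ero1l, the oxidase that recharges disulfide isomerases, was also highest there, at 139.9 and 134.3 against 61.8 and 54.1. Canx, the lectin chaperone calnexin, was level between plasma-like (305.0 and 341.2), innate lymphoid-like (342.3 and 332.8) and macrophage- or monocyte-like cells (334.0 and 346.8). Pdia3, the isomerase that partners the lectin chaperones, was highest in plasma-like cells of mouse 1 (693.9 against 602.5 in dendritic-like cells) and in dendritic-like cells of mouse 2 (780.6 against 646.0). None of these orders was tested.

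**Figure D2:**
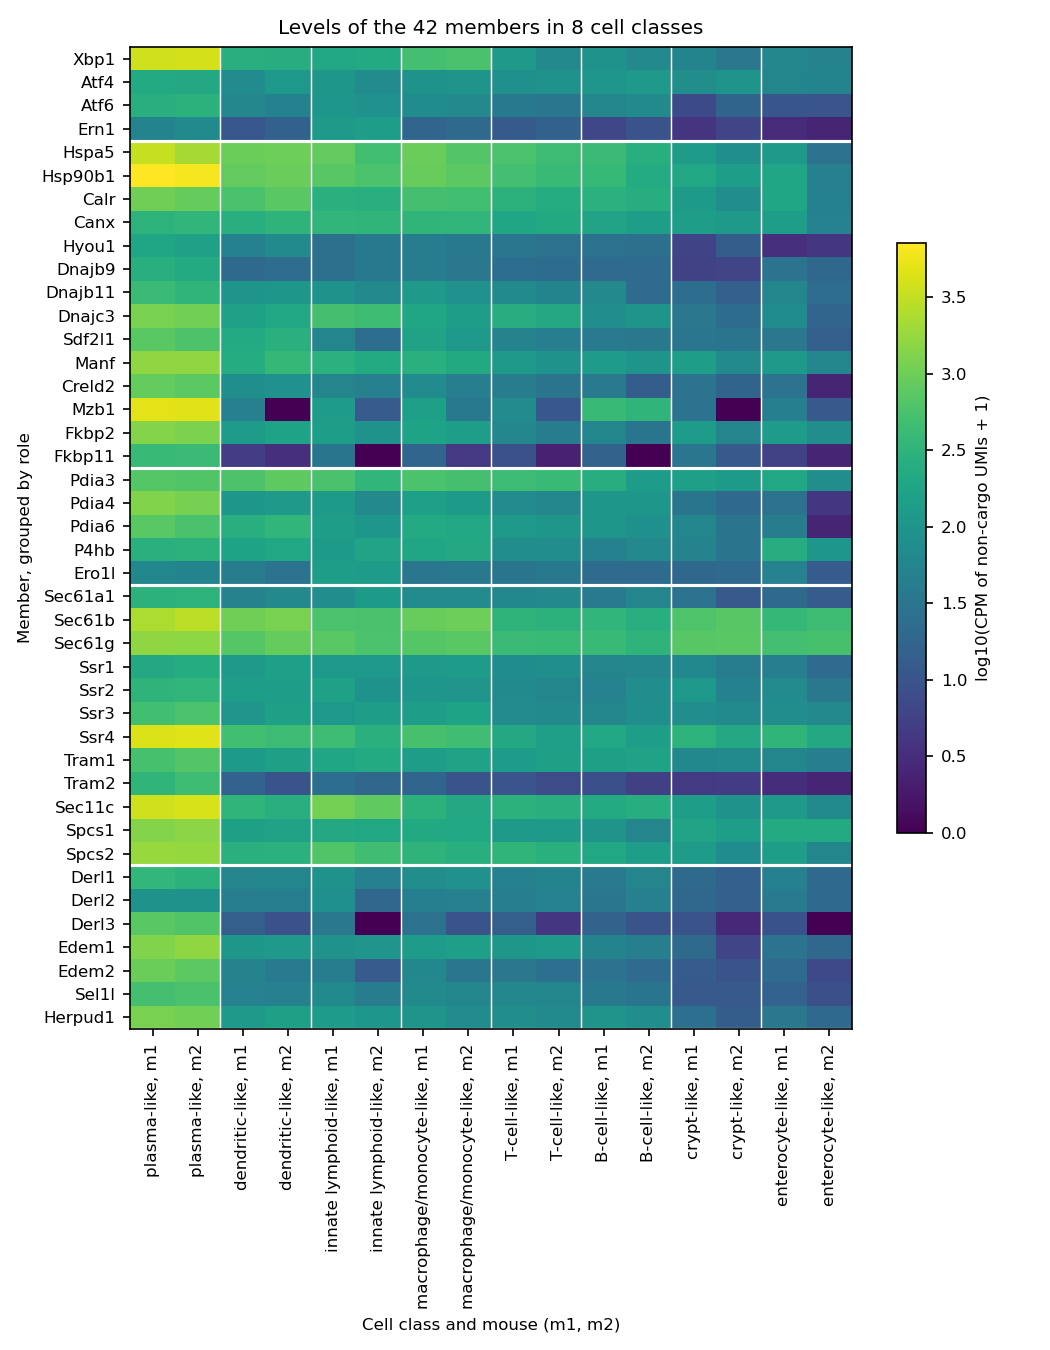
Level of each member (rows, grouped by role between white lines) in 8 cell classes of both mice (columns), as log10 of CPM of non-cargo UMIs plus 1. The plasma-like columns are the brightest for most rows, while Ern1 and Ero1l are brighter in innate lymphoid-like cells and Canx is at like levels in plasma-like, innate lymphoid-like and macrophage- or monocyte-like cells and lower in B-cell-like cells (175.0 and 137.0).

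Plasma-like cells were compared with T-cell-like cells, not among the professional secretors named above, to ask how far the machinery is raised in a secretor of the same tissue. Of the 42 members, 40 were higher in plasma-like cells and none lower, where 21.4% of all 11864 genes tested were higher and 24.9% lower (edgeR quasi-likelihood test on UMIs summed per mouse and class, Benjamini-Hochberg adjusted p under 0.05). The median log2 fold change of the members was 3.26, against -0.07 over all genes, and each of the 42 had a ratio above 1 in both mice on the fitted scale, as did 38.1% of all genes. By role, 4 of 4 sensors and transcription factors, 13 of 14 chaperones, 4 of 5 disulfide enzymes, 12 of 12 translocon and signal peptidase genes and 7 of 7 degradation genes passed. Since the list was chosen with earlier results of these data known, the counts in this and the later comparisons do not test it independently.

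Of the sensors and transcription factors, Xbp1 (chr11:5520659-5525893 of GRCm38), the factor that plasma cells need to build their ER, stood at 3755.7 and 3955.6 non-cargo CPM in plasma-like cells and at 115.3 and 63.7 in T-cell-like cells. That was a log2 fold change of 5.69 (SE 0.43, adjusted p = 1.6e-06 by edgeR), and the classes lay far apart in both mice. Atf6, the membrane-bound sensor that is cut to become a factor, stood at 272.1 and 295.9 against 35.5 and 31.7, a log2 fold change of 3.35 (SE 0.28). Ern1 stood at 54.3 and 66.6 against 11.4 and 14.8 (log2 2.46, SE 0.20). Atf4, the factor of the PERK branch and of amino acid shortage, changed least of the 4, from 85 and 89.3 to 226.3 and 212.3 (log2 1.61, SE 0.22, adjusted p = 9.9e-05 by edgeR). Per UMI of all kinds Atf4 was slightly lower in plasma-like cells, at 73.6 and 68 CPM against 82.4 and 88.9, whereas Xbp1, Atf6 and Ern1 were higher on that scale too.

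Among the chaperones, Mzb1, a partner of the ER chaperone GRP94 in B-lineage cells, showed the highest fold change. It stood at 4958.3 and 4733.0 non-cargo CPM in plasma-like cells and at 69.8 and 9.99 in T-cell-like cells (log2 7.18, SE 1.12, adjusted p = 0.00028 by edgeR). Fkbp11, a prolyl isomerase of the ER, followed with 405.6 and 421.0 against 8.16 and 1.28 (log2 6.76, SE 0.82). In T-cell-like cells both were several-fold higher in mouse 1 than in mouse 2, as was Jchain, a gene of plasma cells, at 2426.5 and 430.9 CPM of all UMIs, and the immunoglobulin share, at 2.75% and 0.479%. The part of free plasma-cell RNA in these levels was not tested. Hsp90b1, which encodes GRP94, stood at 7085.1 and 6261.1 against 492.7 and 411.3 (log2 4.16, SE 0.56), and Hspa5 at 3238.4 and 2134.9 against 581.3 and 432.3 (log2 2.70, SE 0.57). Canx changed least, from 189.4 and 218.8 to 305.0 and 341.2 (log2 0.94, SE 0.37), and did not pass (adjusted p = 0.0557 by edgeR).

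The disulfide enzymes split widely. Pdia4 stood at 1321.5 and 1161.9 against 70.4 and 60.2 (log2 4.53, SE 0.51) and Pdia6 at 722.8 and 563.9 against 118.7 and 106.9 (log2 2.80, SE 0.63). Both are isomerases of the protein disulfide isomerase family. Pdia3 stood at 693.9 and 646.0 against 432.5 and 396.6 (log2 0.97, SE 0.41) and did not pass (adjusted p = 0.0743 by edgeR). Canx and Pdia3, which act together on glycoproteins, were thus the 2 members without a call here. With the mouse as a replicate block both passed (adjusted p = 0.0024 and 0.002), and per UMI of all kinds both were lower in plasma-like cells, Canx at 99.2 and 109.3 CPM against 183.6 and 217.7 and Pdia3 at 225.7 and 206.9 against 419.2 and 394.6.

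Among the translocon genes, Tram2, a membrane protein beside the Sec61 channel, stood at 332.3 and 457.8 non-cargo CPM in plasma-like cells and at 9.29 and 6.59 in T-cell-like cells (log2 5.89, SE 0.30, adjusted p = 8.7e-07 by edgeR). Ssr4, a subunit of the translocon-associated complex, followed with 4410.4 and 4583.1 against 207.4 and 148.1 (log2 4.93, SE 0.39). Ssr1, another subunit of the same complex, changed least (208.7 and 238.5 against 72.9 and 80.8, log2 1.81, SE 0.28), and Ssr2 and Ssr3 lay between with log2 fold changes of 2.66 and 3.17. Per UMI of all kinds Ssr1 was slightly lower in plasma-like cells, at 67.9 and 76.4 CPM against 70.6 and 80.4. The related Tram1 was called with a log2 fold change of 2.37. The signal peptidase subunit Sec11c stood at 3790.0 and 4098.7 against 300.8 and 264.1 (log2 4.07, SE 0.33).

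Among the degradation genes, Derl3 (chr10:75893413-75895941 of GRCm38), a derlin of the channel that returns misfolded chains to the cytosol, stood at 723.9 and 635.3 against 13.8 and 3.12 (log2 6.61, SE 0.78, adjusted p = 3.6e-05 by edgeR). Edem2, which trims mannose from glycoproteins marked for removal, stood at 951.0 and 759.9 against 32.4 and 24.4 (log2 5.20, SE 0.43). The other derlins changed less: Derl1 by 2.98 and Derl2 by 1.29 on the log2 scale. Derl2 stood at 91.5 and 94.6 against 42.7 and 49.8, and per UMI of all kinds it was lower in plasma-like cells in both mice. The 8 members with the ER stress element spanned nearly the whole range of fold changes, from Canx at 0.94 to Derl3 at 6.61.

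**Figure D3:**
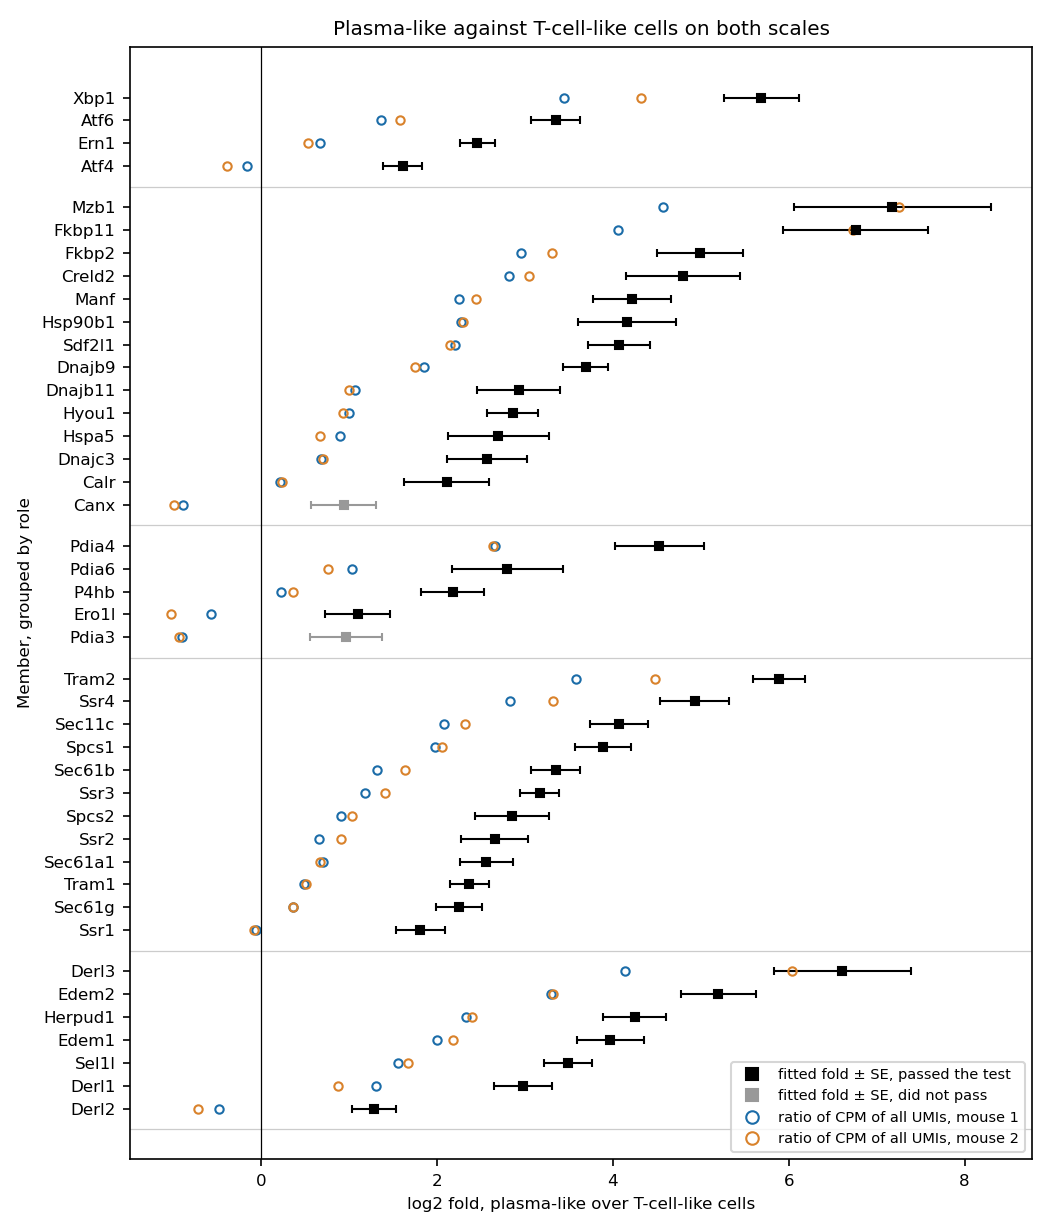
Log2 fold of plasma-like over T-cell-like cells (x axis) for each member (y axis, grouped by role and ordered by fold). Squares are fitted fold changes with SE, grey where the test was not passed; circles are each mouse's ratio of CPM of all UMIs, which lie to the left because immunoglobulin takes most of the UMIs of plasma-like cells, and lie below 0 for Atf4, Canx, Ero1l, Pdia3, Ssr1 and Derl2 in both mice.

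The scale thus matters for size more than for most directions. With all UMIs as the library total, 29 members were higher and 3 lower in plasma-like cells (Canx, Pdia3 and Derl2), with a median log2 fold change of 1.39 while that of all genes was -1.95. Of all 11864 genes, 727 were then higher and 9214 lower.

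B-cell-like cells, the lineage that plasma cells come from, gave the same picture at the level of the list. All 42 members were higher in plasma-like cells (17.9% of all genes were higher), with a median log2 fold change of 3.54 against 0.22 over all genes. Tram2 changed most, from 7.64 and 4.28 non-cargo CPM in B-cell-like cells to 332.3 and 457.8 (log2 5.96, SE 0.36). Xbp1 rose by 5.78, Derl3 by 5.77, Fkbp11 by 5.22 and Pdia4 by 3.78 on the log2 scale. Fkbp11 had 0 UMIs in B-cell-like cells of mouse 2, which allows up to 12.6 CPM. Mzb1 was already at 398.6 and 329.6 in B-cell-like cells, far above its level in T-cell-like cells, and its log2 fold change was 3.97. The smallest changes were those of Atf4 and Canx (both 1.25), Derl2 (1.57), Ero1l (1.63) and Tram1 (2.17). Per UMI of all kinds these members except Tram1 were lower in plasma-like cells of both mice. Atf4 stood at 73.6 and 68 CPM against 99 and 117.7, and Canx at 99.2 and 109.3 against 168.5 and 134.5. Canx lost its call when any 1 of the 4 sums was left out (adjusted p from 0.058 to 0.18), Ero1l without plasma-like mouse 1, B-cell-like mouse 1 or B-cell-like mouse 2 (0.096, 0.17 and 0.091), and Derl2 without B-cell-like mouse 1 (0.054). With mitochondrial UMIs under 10% and at a clustering resolution of 1.2, 38 and 39 members were called, the median fell to 2.36 and 2.34, and Canx (0.078 and 0.068) and Ero1l (0.088 and 0.083) lost their calls; the B-cell-like cells of mouse 1 then held 26.9% and 27.2% immunoglobulin, against 3.34% here, and its part in the change was not tested.

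Against enterocyte-like cells, the absorptive cells of the villus, 40 members were higher and none lower (39% of all genes were higher and 27.3% lower), with a median log2 fold change of 4.11 against 0.44 over all genes. Tram2 stood at 2.17 and 1.53 non-cargo CPM in enterocyte-like cells, which rests on 9 and 1 UMIs, and its log2 fold change was 7.51 (SE 0.38). Mzb1 rose by 7.24, Derl3 by 6.72, Pdia4 by 6.08 and Xbp1 by 6.06 on the log2 scale. Derl3 had 0 UMIs in enterocyte-like cells of mouse 2, which allows up to 4.59 CPM. The smallest changes in the other roles were Atf4 (1.92), Canx (1.69), Sec61g, the small subunit of the channel (1.58), and Derl2 (1.53). The 2 members without a call were disulfide enzymes. P4hb, the founding protein disulfide isomerase, stood at 245.8 and 104.4 in enterocyte-like cells and at 276.0 and 300.1 in plasma-like cells (log2 0.64, SE 0.35, adjusted p = 0.123 by edgeR), and it passed with the mouse as a replicate block (adjusted p = 0.012). Ero1l stood at 50.8 and 12.3 against 61.8 and 54.1 (log2 0.64, SE 0.39, adjusted p = 0.165), and it passed when enterocyte-like mouse 1 was left out (log2 2.18, adjusted p = 0.0014). For both genes the enterocyte-like cells of mouse 1 stood above those of mouse 2. Per UMI of all kinds both were lower in plasma-like cells of mouse 1, P4hb at 89.8 CPM against 240.5 and Ero1l at 20.1 against 49.8. Canx (99.2 against 133.7) and Derl2 (29.8 against 37) were lower there too.

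Crypt-like cells, the dividing compartment of the epithelium, were lower than plasma-like cells for all 42 members (31.3% of all genes were higher in plasma-like cells). The median log2 fold change was 4.24 against 0.16 over all genes. Mzb1 changed most, by 8.24 on the log2 scale, with 28.3 and 0 non-cargo CPM in crypt-like cells, the latter allowing up to 5.39 CPM of all UMIs. Tram2 (6.91), Derl3 (6.83), Xbp1 (6.55) and Pdia4 (5.72) led the other roles. The smallest changes were Sec61g (1.29), Canx (1.42), Atf4 (1.47), Ero1l (1.75) and Derl2 (2.57). Sec61g was at 703.1 and 731.0 in crypt-like cells against 1629.3 and 1561.2, and per UMI of all kinds it was lower in plasma-like cells. Atf4 and Canx were lower on that scale too. Canx lost its call without crypt-like mouse 2 (adjusted p = 0.06) and Ero1l without crypt-like mouse 1 (0.073).

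These 4 comparisons share their plasma-like sums and so are not independent. The log2 fold changes of Xbp1, Tram2 and Derl3 ranged from 5.69 to 7.51 over the 4 comparisons, and those of Canx, Atf4 and Derl2 from 0.94 to 2.57.

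Cells were next counted one by one, thinned to 1000 UMIs each so that depth was equal, leaving out 43 and 1 shallower plasma-like cells and 68 and 79 T-cell-like cells. The median member was seen in 19.2% and 18.7% of plasma-like cells, 7.06% and 6.34% of T-cell-like cells, 6.17% and 7.53% of B-cell-like cells, 4.9% and 2.42% of enterocyte-like cells and 2.61% and 0% of crypt-like cells. Xbp1 was seen in 67.9% and 67.5% of the plasma-like cells and in 11.3% and 6.16% of the T-cell-like cells. Mzb1 was seen in 69% and 63.9%, against 5.44% and 2.42% of enterocyte-like cells, an epithelial class not known for it. The parts of free RNA and of doublets in the latter shares were not tested. Without thinning, at median depths of 22351 and 20225 UMIs, the median member was seen in 89.7% and 89.8% of plasma-like cells, with 37 and 36 of the 42 members seen in the median cell. At this depth free RNA also gives UMIs: in mouse 1 the pancreatic enzyme gene Ctrb1 was seen in 88.8% and the Paneth gene Defa24 in 54.4% of the same cells, so the unthinned shares are not read as expression. T-cell-like cells had medians of 3140 and 2542 UMIs, and 11 and 9 members in the median cell.

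Plasma-like cells fell into 3 clusters. Nearly all (2238 of 2241 and 611 of 611) had IgA as their leading heavy chain. The cell at the middle spent 4.82% and 4.7% of its non-cargo UMIs on the members. Across cells, the immunoglobulin share and the members' share of the rest had a Spearman correlation of 0.07 and 0.05 over 2241 and 611 cells, which share a library and their depth. Pooled over cells with 20 to 40%, 40 to 60% and at least 60% immunoglobulin, the members' share was 6.61%, 5.88% and 5.24% in mouse 1. In mouse 2 it was 6.82%, 5.69% and 4.99%. The 15 and 2 cells with under 20% gave 1.18% and 5.86%. A cluster of 239 and 135 cells had less immunoglobulin (55.7% and 58.9%) and more of the members (6.51% and 6.38% of non-cargo UMIs) than the main cluster of 1703 and 468 cells (68.8% and 70.9%, and 5.15% and 4.69%). Per UMI of all kinds the gap was wider, at 2.88% and 2.62% against 1.6% and 1.36%, and Fkbp11 stood at 353 and 332 CPM against 102.1 and 72.2. The third cluster, of 299 and 8 cells with medians of 5159 and 5240 UMIs, spent 5.18% and 2.72% of its non-cargo UMIs on the members. Mzb1 and Fkbp11 were among the 10 genes that led the cluster of 239 and 135 cells, so the member level of that cluster is a description only.

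Paneth-like cells were few, 11 and 7 cells with 111524 and 17383 UMIs, and the values rest on few molecules. The fit that includes them was chosen after the data were seen. Against enterocyte-like cells 18 members were higher and none lower (2.83% of 11000 genes were higher and 8.91% lower), with a median log2 fold change of 1.70 against -1.61 over all genes. The median over all genes was -1.50 in mouse 1 and -5.97 in mouse 2, and that of the members 1.67 and 0.86. By DESeq2 the members' median was 2.12 against 0.04, so the size of the gap depended on the mouse and the fit. Against crypt-like cells 19 were higher (2.18% of all genes), with a median of 1.90 against -1.51, or 2.44 against 0.07 by DESeq2. Against T-cell-like cells 11 were higher (4.62% of all genes), with a median of 1.13 against -1.75, or 1.18 against -0.53 by DESeq2. Without the Paneth-like cells of mouse 1 these counts were 2, 3 and 2. Without enterocyte-like mouse 2 the first was 9, and without crypt-like mouse 1 or mouse 2 the second was 12 or 10.

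Fkbp11 stood at 464.4 and 986.6 non-cargo CPM in Paneth-like cells (24 and 7 UMIs) and at 4.58 and 1.53 in enterocyte-like cells, a log2 fold change of 6.29 (SE 0.94, adjusted p = 0.00035 by edgeR). P4hb stood at 1412.5 and 2255.1 (73 and 16 UMIs), against 245.8 and 104.4 in enterocyte-like cells (log2 2.25, SE 0.40), 51.9 and 28.8 in crypt-like cells (log2 4.50, SE 0.44) and 78.9 and 74.9 in T-cell-like cells (log2 3.81, SE 0.41). Both genes passed in all 3 comparisons. Hspa5 stood at 1373.8 and 1268.5, above enterocyte-like cells (log2 3.23, SE 0.64) and crypt-like cells (log2 2.87, SE 0.63), and did not pass against T-cell-like cells (adjusted p = 0.393). Xbp1, at 290.2 and 281.9 on 15 and 2 UMIs, passed against crypt-like cells alone (log2 2.01, SE 0.56, adjusted p = 0.0341 by edgeR).

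Plasma-like cells stood above Paneth-like cells for 25 members (7.07% of all genes were higher), and below them for 1, P4hb (3.04% were lower), at 276.0 and 300.1 against 1412.5 and 2255.1 (log2 -1.61, SE 0.39, adjusted p = 0.015 by edgeR). The median log2 fold change was 2.42 against 1.69 over all genes. The order differed by mouse: the members' median was 2.16 against 1.53 over all genes in mouse 1, and 3.62 against 6.61 in mouse 2. The Paneth-like sum of mouse 2 held 17383 UMIs, and the part of low and 0 counts in these mouse 2 medians was not tested. By DESeq2 the members' median was 2.03 against 0.18 over all genes. Xbp1 (log2 4.55, SE 0.54) and Hsp90b1 (log2 3.43, SE 0.61) were among the 25. Fkbp11 and Pdia3 did not pass (adjusted p = 0.792 and 0.981). Tram2 and Ern1 had 0 UMIs in the Paneth-like cells of both mice. For Tram2 the 0 counts allow up to 58 and 422.7 non-cargo CPM, so that the level in plasma-like cells was at least 5.73-fold higher in mouse 1 and at least 1.08-fold higher in mouse 2. For Ern1 the limit lies above the plasma-like level in both mice, and a difference was not detectable at this depth. Without the Paneth-like cells of mouse 1, 15 members were higher, and with all UMIs as the total 10 were higher and 1 lower.

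Acinar cells, those with at least 20% of UMIs from pancreatic enzymes, were found in mouse 1 alone, and no test was run on this single sum. They spent 0.432% of all UMIs on the members (95% exact interval 0.422 to 0.443, counting error only) and 1.32% of the UMIs that were not cargo. Set beside plasma-like cells of the same mouse, 40 members were lower and 2 higher per UMI of all kinds, with a median log2 ratio of -2.13, and 1 of them was at least 2-fold higher (9.97% of all genes). The 2 were the ones that stood out in Paneth-like cells: P4hb at 716.8 against 276.0 non-cargo CPM and Fkbp11 at 737.5 against 405.6, and both were higher per UMI of all kinds as well (234.3 against 89.8 and 241.0 against 131.9 CPM). Immunoglobulin held 3.9% of the UMIs of acinar cells. Mzb1, at 163.7, lay far below its level in plasma-like cells. The shares of all genes lower or higher than in plasma-like cells were not computed, so the 40 and 2 are not read as particular to the members.

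Beside enterocyte-like cells of the same mouse, 38 members were higher and 3 lower in acinar cells per non-cargo UMI (median log2 ratio 1.82), but 22 higher and 20 lower per UMI of all kinds (median 0.23). At least 2-fold higher per UMI of all kinds were 14 of the 42, beside 5.41% of all genes. The ratio was highest for Fkbp11 on both scales (log2 7.33 and 5.75), followed per non-cargo UMI by Hyou1, a chaperone of the BiP family (60.1 against 2.41 CPM, log2 4.64), and Sel1l, the scaffold of the degradation ligase (273.5 against 15.2, log2 4.17). Xbp1 was at 656.7 against 58.8. Ero1l and Derl2 were lower in acinar cells (16.6 against 50.8 and 12.4 against 37.8, on 8 and 6 UMIs). Beside T-cell-like cells 10 were higher and 32 lower per UMI of all kinds, and 35 higher and 7 lower per non-cargo UMI, 5 at least 2-fold on the former scale (4.31% of all genes). Beside crypt-like cells 26 and 16 became 40 and 2, with 13 at least 2-fold on the former scale (3.49% of all genes). Leaving out cargo raises every other gene of acinar cells by the same factor. The shares of all genes higher or lower were not computed on either scale. The counts of higher and lower members in these 3 comparisons are therefore not read as particular to the members.

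**Figure D4:**
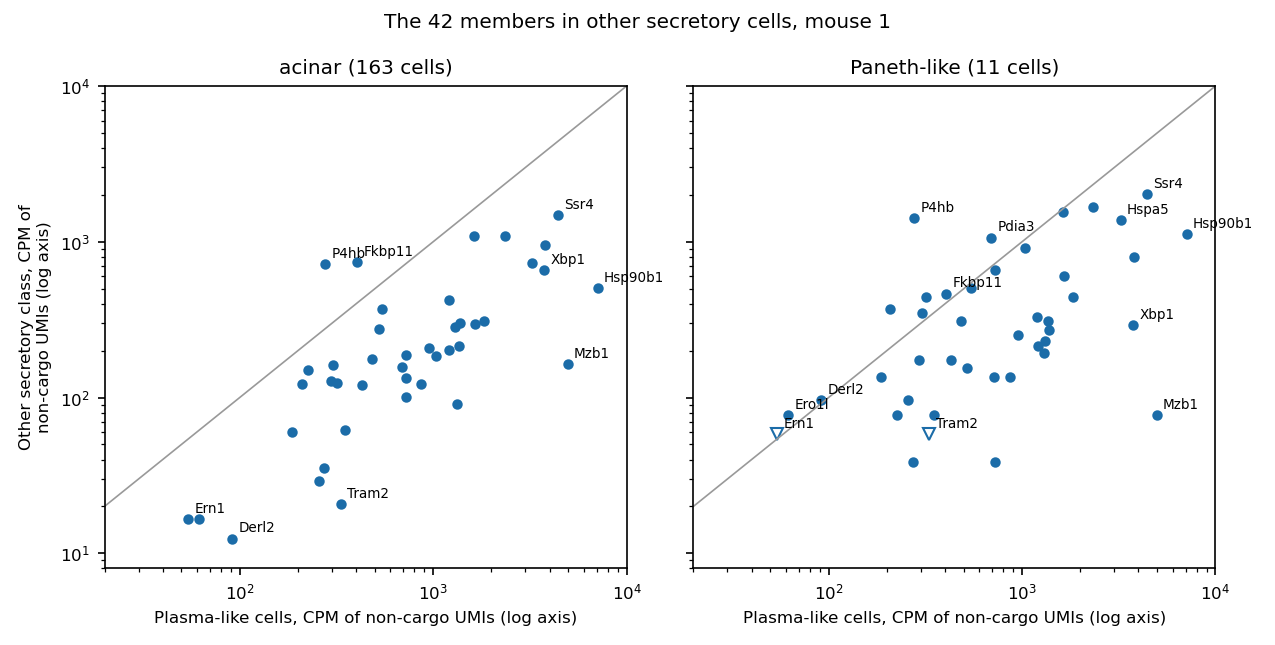
Level of each member in acinar cells (left) and Paneth-like cells (right) of mouse 1 (y axes) against its level in plasma-like cells of mouse 1 (x axes), in CPM of non-cargo UMIs on log axes. The grey line marks equal levels and open triangles mark Ern1 and Tram2 at the limit that 0 UMIs allow (58 CPM); P4hb and Fkbp11 lie above the line in both panels.

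The other genes of the pathway, a list of 78 fixed by role, were read in plasma-like against T-cell-like cells to see whether the pattern stops at the members. Of the 75 tested, 62 were higher, 2 lower and 11 not called, with a median log2 fold change of 1.97. Over all genes 21.4% were higher and 24.9% lower, with a median of -0.07. Among folding genes, the peroxiredoxin Prdx4 stood at 639.6 and 717.9 against 13 and 1.42 (log2 6.83) and Txndc5, a disulfide isomerase that also served as a plasma marker, at 2903.1 and 3340.6 against 59.3 and 30.5 (log2 6.38), while the glycoprotein folding sensor Uggt1 did not pass (log2 -0.05, adjusted p = 0.934). Among export genes Kdelr3, a receptor that retrieves ER proteins, and Lman1, a cargo receptor for glycoproteins, led with 6.28 and 4.42, and the coat protein Sec24c did not pass (0.45, adjusted p = 0.141). The oligosaccharyltransferase genes, which attach sugars to entering chains, had 10 higher, led by Krtcap2 (2.98) and Ddost (2.75), and 1 lower, the oxidoreductase subunit Tusc3, at 7.89 and 9.26 against 16.5 and 19.6 (log2 -0.81, SE 0.26, adjusted p = 0.0228 by edgeR).

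Of the targeting genes 11 of 12 were higher, led by the signal peptidase subunit Spcs3 (3.32) and the receptor of the signal recognition particle Srpr (2.86), and Sec11a, the other catalytic subunit of the peptidase, did not pass (0.68, adjusted p = 0.188). Of the degradation genes 8 of 10 were higher, led by the ligase Syvn1 (3.26) and Selenok (3.21). The stress genes divided. Bhlha15, a transcription factor of secretory cells also called MIST1, stood at 90 and 109.6 against 2.27 and 0.213 (log2 6.77), and Asns, asparagine synthetase, at 88.5 and 56.8 against 2.38 and 1.06 (log2 5.76). Ddit3, the factor CHOP of prolonged ER stress, was lower in plasma-like cells, at 26.3 and 23.3 against 52.4 and 51.6 (log2 -0.77, SE 0.24, adjusted p = 0.0191 by edgeR). Against B-cell-like, enterocyte-like and crypt-like cells, 63, 63 and 69 of the 75 were higher and 1, 6 and 1 lower. Of all 11864 genes, 17.9%, 39% and 31.3% were higher, and 1230, 3237 and 3301 genes were lower.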

How the data were processed

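The authors deposited unnormalized UMI counts for each gene in each barcode, made with Cell Ranger 6.1.2 on mm10 per their processing notes. The release of the annotation is not given in the sources used here. A barcode was kept if it had more than 100 genes and 400 UMIs, less than 5% mitochondrial UMIs and less than 10% haemoglobin UMIs. Members and lists were chosen with earlier results of these data known. Members, other pathway genes and Apc were left out, and cargo genes kept, in choosing the 2000 variable features used to integrate the libraries (RPCA, Seurat 5.3.0, 30 dimensions, resolution 0.8), and epithelial and secretory clusters were sub-clustered. Naming took 3 or more markers, each found in 10% or more of the cells at a log2 fold of 1 or more, a rule written after the clusters had been seen. The names were rebuilt here and a difference from the study may come from that. Doublets stayed in: Scrublet (scanpy 1.11.5) called 1 and 0 cells and so did not work, and an alternative removed the 8% with the highest scores.

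The sums of counts for each class of each mouse went into edgeR 4.0.16, whose two-sided quasi-likelihood test (glmQLFTest after glmQLFit) was used with TMM scaling and filterByExpr, and p-values were adjusted by Benjamini-Hochberg over every gene tested. Plasma-like, B-cell-like, T-cell-like, enterocyte-like and crypt-like sums (10 sums) entered 1 fit without a block; Paneth-like cells were under the 20 cells per mouse required and entered a second fit. SE was the log2 fold change divided by the root of F. The labels do not say more of how the 2 mice differ, and p-values measure the spread between these 2. Classes of 1 mouse share that animal, so the replicate number pairs them; the deviations of paired sums correlated with r of 0.15 to 0.64 over 10323 genes. Alternatives were that block, DESeq2 1.42.0, no filter on low counts, other clusterings and filters, and leaving out each sum. The fits were also run on simulated data with 200 changed genes and 3 draws, far fewer changes than the calls against T-cell-like cells. Those runs are not read as a check of the comparisons here. Values in both mice and full statistics go to the sensors, and per role to the 2 members with the largest and the 1 with the smallest change against T-cell-like cells, and elsewhere to the largest and smallest of each role; Hsp90b1, Hspa5, Sec11c and other members were named beyond this after their values were seen. Intervals and limits for a count of 0 (3 counts) cover counting error only. Total counts of the kept cells were 81060645 and 35474260. Counts come from the 3′ end, and levels of different genes were not compared. Protein sequences were not used here. The result of 1 other pathway gene is not reported here.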

Additional observations from a re-analysis of the deposited data

Results flagged for a closer look

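Barcodes that failed the filters held member UMIs too. The members took 0.554% of the UMIs of the 1704 barcodes removed in mouse 1 and 0.489% of those of the 1843 removed in mouse 2, above the limit that a count of 0 allows. A cluster of 41 and 49 cells led by cell cycle genes was left unnamed because other classes held more of its leading genes, and entered no comparison. The members took 4.69% and 3.62% of its non-cargo UMIs, the nearest of the unnamed clusters held by both mice to plasma-like cells, although per UMI of all kinds they took 3.34% and 2.79%, above the 1.75% and 1.67% of plasma-like cells. Immunoglobulin took 28.7% and 23% of its UMIs. The difference from other clusters was not tested.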

How the results depend on the processing

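In the 4 comparisons of plasma-like with T-cell-like, B-cell-like, enterocyte-like and crypt-like cells, the number of members called higher stayed within 1.5 times under every alternative run, and with 1 sum left out it ranged over 39 to 40, 36 to 41, 40 to 42 and 41 to 42. A lone sum was then assumed to vary like the other classes. The mouse as a replicate block added the calls of Canx and Pdia3 against T-cell-like cells (42 of 42) and that of P4hb against enterocyte-like cells (41 of 42), and changed no other count among these 4. DESeq2, the fit with no filter on low counts, the removal of cargo genes and the fit of the compared classes alone also called Canx (adjusted p = 0.012, 0.005, 0.035 and 0.00079) and Pdia3 (0.021, 0.0026, 0.042 and 0.0016). With all UMIs as the total and no TMM factors, an alternative chosen after the data were seen, the members higher and lower were 29 and 3, 30 and 1, 35 and 2, and 34 and 1, and 14 values of named members reversed. Against T-cell-like cells these were Atf4 (-0.27), Canx (-0.95), Pdia3 (-0.91), Ssr1 (-0.07) and Derl2 (-0.60). Against B-cell-like cells they were Atf4 (-0.58), Canx (-0.57), Ero1l (-0.15) and Derl2 (-0.22), against enterocyte-like cells Ero1l (-0.95) and Derl2 (-0.05), and against crypt-like cells Atf4 (-0.28), Canx (-0.32) and Sec61g (-0.46). The scaling itself moves them: it shifts the median of all genes to -1.95, -1.55, -1.12 and -1.57 on the log2 scale.

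The Paneth-like results depended on the processing. With 1 sum left out the members higher ranged over 2 to 22 against enterocyte-like, 3 to 20 against crypt-like and 2 to 12 against T-cell-like cells, and 15 to 27 for plasma-like over Paneth-like cells. Resolution 1.2 gave 10 against enterocyte-like cells, DESeq2 gave 30 against crypt-like cells, and the fit of the compared classes alone gave 19 against T-cell-like cells. All UMIs as the total gave 10 for plasma-like over Paneth-like cells. The cause was not tested.

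The mean share of UMIs taken by the members rose from 1.71% to 5.29% in plasma-like cells and from 0.875% to 2.01% in Paneth-like cells without cargo, which follows from the smaller total. With mitochondrial UMIs under 10% it was 1.61% in plasma-like and 0.804% in B-cell-like cells. The median share of cells with a UMI of a member follows the depth: at 500 and 2000 UMIs it was 9.66% and 33.6% in plasma-like, 3.54% and 12.4% in T-cell-like and 1.57% and 7.08% in enterocyte-like cells, and 4.88% at 2000 in crypt-like cells. Acinar cells gave 0.456% at an enzyme share of at least 10% and 0.397% at 50%. Against B-cell-like cells the members' median log2 fold change fell to 2.36 with mitochondrial UMIs under 10% and to 2.34 at resolution 1.2. The planned check of retention signals at protein ends was not run.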

Other observations

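Enteroendocrine-like cells, hormone secretors of the epithelium (15 and 18 cells), spent 1.36% and 0.909% of all UMIs on the members and 1.45% and 0.915% of those that were not cargo. Hsp90b1 stood there at 1733.2 and 637.3 and Hspa5 at 1279.8 and 671.3 non-cargo CPM. Mzb1 was at 415.7 in mouse 1, on 165 UMIs, and at 2.83 in mouse 2, on 1 UMI, and the immunoglobulin share was 4.41% and 0.139%. Goblet-like cells (6 and 9 cells) gave 0.408% and 0.617%, on 21565 and 22692 UMIs in all. Neither class was tested.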
